A study of Mus musculus with 10 samples.

Results

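The mouse genes described here are 9 members of the transcript burst of the 2-cell embryo, namely Zscan4a, Zscan4b, Zscan4c, Zscan4d, Zscan4e, Zscan4f, Zfp352, Tcstv1 and Tcstv3. They were chosen by name, and 5 of the 9 have a row among the 21437 gene names of the expression table: Zscan4d, Zscan4e, Zfp352, Tcstv1 and Tcstv3. Zscan4a, Zscan4b, Zscan4c and Zscan4f have no row, so no value is given for them. The values are FPKM, counts of sequenced fragments scaled by the exon length of each gene and by the mapped fragments of each library.

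RNA-seq covered 5 groups of 2 libraries each: MII oocytes, control embryos of the middle 2-cell and the early 4-cell stage, and embryos of both stages after Ago2 knockdown (kd). The methods describe injecting Ago2 siRNA mixed with AGO2 antibodies, and the study states that zygotes were injected to lower both RNA and protein. AGO2 is an Argonaute protein, which carries small RNAs to their targets. Legends of the study's first figure name siRNA or antibodies instead, so the joint injection of the sequenced embryos is not certain. The labels give strain ICR for every sample and wild type for oocytes and controls. The methods give oocytes of 7-week-old superovulated ICR females at 16 h after hCG and embryos of 7-week-old superovulated F1 females crossed with F1 males, taken at 40 h (2-cell) and 55 h (4-cell), so strain and stage cannot be told apart between oocytes and embryos. They name a scrambled siRNA as the negative control and describe no control antibody. The level of Ago2 itself is not analysed here.

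At the 2-cell stage of the mouse the zygotic genome is switched on in a short wave, and a set of genes is transcribed in that wave and then silenced before the next divisions. Zscan4 encodes proteins with a SCAN domain and zinc fingers that are known for this stage and for the rare 2-cell-like cells of embryonic stem cell cultures, where Zscan4 has been linked to telomere lengthening. Zfp352 encodes a zinc finger protein and Tcstv1 and Tcstv3 belong to a family of small 2-cell stage proteins. The double homeobox factor Dux is known to switch the programme on, and chromatin factors such as TRIM28 and the histone chaperone CAF-1 are known to hold it down.

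The 6 named Zscan4 genes lie with 3 further copies, Zscan4-ps1, Zscan4-ps2 and Zscan4-ps3, in a cluster of 9 copies at chr7:10794242-11614112 of GRCm38, a span of 820 kb (GENCODE M21). Zscan4d, with its 4 exons at chr7:11161374-11166159, and Zscan4e at chr7:11306378-11310682 are both protein-coding and on the minus strand. The annotation calls Zscan4a an unprocessed pseudogene. Their transcripts are near copies of each other, with a pairwise identity of 96.6 to 99.8% over the 9 copies. Of all windows of 100 bases in the Zscan4e transcript, 84.1% occur unchanged in another copy, against 29.6% for Zscan4d, so that a read of this length can belong to several copies. How the authors' alignment and counting divided such reads is not given in the sources used here. The levels of single copies are therefore uncertain, and the sum of the Zscan4 rows is given beside them.

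**Figure D1:**
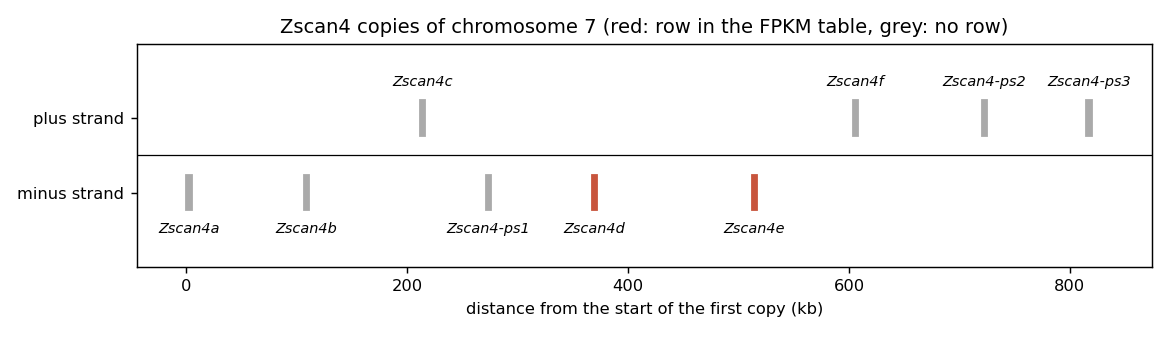
Map of the 9 Zscan4 copies of chromosome 7, with the distance from the start of the first copy in kb on the x axis and the strand on the y axis. The 2 red boxes, Zscan4d and Zscan4e, have a row in the FPKM table and the 7 grey boxes have none.

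Zfp352 lies apart at chr4:90218820-90225702 on the plus strand. Tcstv1 at chr13:119893388-119894785 (minus strand) and Tcstv3 at chr13:120316878-120318178 (plus strand) are 425 kb apart from end to end, and their transcripts shared 90.2% of 743 aligned bases. Just 10.5% of the 50-base windows of Tcstv1 and 17.9% of those of Tcstv3 occur in the other gene.

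The stretches of 250 bases upstream of the RefSeq start were read for the 5 members that have an entry in the RefSeq promoter table (GRCm38.p6), Zscan4b, Zscan4c, Zscan4d, Zscan4f and Zfp352. They are shown because Zscan4d, which has a row, and Zscan4b, Zscan4c and Zscan4f, which have none, carry nearly the same upstream letters, while Zfp352 carries others. Capitals in both Zscan4 sequences mark TATAAA and CCAAT, and capitals in the Zfp352 sequence mark each exact match of AGGACAACACAC. Zscan4d is read at chr7:11166149-11166398 (minus strand), Zscan4f at chr7:11397665-11397914 (plus strand) and Zfp352 at chr4:90218570-90218819 (plus strand), each 5′ to 3′ and ending at the base before the start.
Zscan4d: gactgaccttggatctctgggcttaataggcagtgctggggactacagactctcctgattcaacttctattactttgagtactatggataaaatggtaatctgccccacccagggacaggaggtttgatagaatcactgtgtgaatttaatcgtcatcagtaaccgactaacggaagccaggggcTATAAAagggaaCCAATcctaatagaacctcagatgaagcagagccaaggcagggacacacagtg
Zscan4f: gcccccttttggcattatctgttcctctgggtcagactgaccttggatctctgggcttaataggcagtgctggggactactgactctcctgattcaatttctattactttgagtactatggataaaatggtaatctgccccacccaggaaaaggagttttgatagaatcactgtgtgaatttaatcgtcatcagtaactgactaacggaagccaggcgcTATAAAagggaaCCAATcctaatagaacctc
Zfp352: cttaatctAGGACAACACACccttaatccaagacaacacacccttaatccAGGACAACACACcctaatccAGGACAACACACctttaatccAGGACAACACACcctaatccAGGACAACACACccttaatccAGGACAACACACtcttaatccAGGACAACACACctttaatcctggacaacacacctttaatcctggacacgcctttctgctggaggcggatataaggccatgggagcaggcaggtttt

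TATAAA, the core of the TATA box, and CCAAT were each searched on both strands, and both occur in all 4 Zscan4 promoters read. TATAAA lies 31 to 26 bases before the start in Zscan4b and Zscan4f, and begins 54 bases before it in Zscan4c and 65 bases before it in Zscan4d, where the annotated starts differ. Of 32851 mouse promoters of the same length, 12.4% hold TATAAA and 33.8% hold CCAAT. The 216 aligned bases of Zscan4d and Zscan4f were 96.8% identical. The letters TGCACAC, searched for as a motif reported for ZSCAN4, occur in none of the 5 and in 3.67% of all promoters. The Zfp352 promoter held none of these 3 motifs, and instead a tandem array in which AGGACAACACAC occurs 7 times. In 1.52% of all promoters some stretch of 12 bases occurs 7 times or more. These matches describe letters in this window and no binding was measured.

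The libraries differed in ways that bear on the members. The FPKM sums of the libraries ran from 178681 to 458874, with both oocyte libraries at the top, and read counts were not analysed here, so the depth is unknown. The 4-cell Ago2 kd replicate 1 stood apart: 14.6% of the genes above 10 FPKM in its other replicate were under 0.1 FPKM in it, against at most 5.81% in any other library. The oocyte markers summed to 6990 and 8552 FPKM in the oocytes, 1147 to 1692 FPKM in the 2-cell libraries and 5.95 to 41.2 FPKM in the 4-cell libraries. Of 13 cumulus cell markers 3 had a row, with Foxl2 and Vcan at 0 in every library and Amhr2 at most 1.75 FPKM. FPKM are shares of the RNA of whole oocytes or embryos, so fewer cells with a transcript and less of it per cell cannot be told apart.

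The table itself is built from 18 stretches of rows, each in alphabetical order. Zscan4d lies in the second stretch, in which 99.5% of the 2525 rows were above 0 in 2-cell control replicate 1 against 31.6 to 55.1% in the other libraries, so a 0 in this stretch may stand for a gene that was not listed in a library. Tcstv3 lies in the last stretch, of 196 rows, and 193 of these carry the same value above 0 in both 2-cell Ago2 kd libraries, which no other row of the table does. Thus the 2-cell Ago2 kd group holds 1 value of Tcstv3 and not 2. The tests below use 1 spread per gene over all 5 groups. The repeated value therefore enters the SE, limits and p of Tcstv3 in every comparison as a pair without spread, which can make them too small.

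Zscan4d was above 0 in 1 of 10 libraries, with 51.3 FPKM in 2-cell control replicate 1, and was listed at 0 in 2-cell control replicate 2 and in all other libraries. Zscan4e was 3.59 and 9.23 FPKM in the 2-cell controls, 0 and 6.66 FPKM after 2-cell Ago2 kd, and listed at 0 in the oocytes and in all 4-cell libraries. The sum of the Zscan4 rows was hence 54.9 and 9.23 FPKM in the 2-cell controls, and 0 and 6.66 FPKM after 2-cell Ago2 kd. All Zscan4 values above 0 were thus in 2-cell libraries, and the 2 control libraries differed by which copy they listed: Zscan4d was the higher copy in replicate 1, and Zscan4e the only one above 0 in replicate 2.

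Zfp352 stood at 0.113 and 0 FPKM in oocytes. It reached 197.2 and 290.4 FPKM in the 2-cell controls, beside 96.5 and 249.7 FPKM after 2-cell Ago2 kd. At the 4-cell stage it was 6.22 and 0.805 FPKM in the controls and 8.36 and 13.6 FPKM after Ago2 kd. It was nearly absent from oocytes, high in every 2-cell library, and low but above the oocytes in every 4-cell library. With a mean of 243.8 ± 65.9 FPKM (SD, n = 2) it ranked 125th of all gene names in the 2-cell controls.

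Tcstv1 stood at 71.6 and 81.5 FPKM in the oocytes, at 56.6 and 62.1 FPKM in 2-cell controls, and at 90.9 and 69.5 FPKM after 2-cell Ago2 kd. It fell to 0.448 and 0.849 FPKM in the 4-cell controls beside 3.10 and 1.85 FPKM after 4-cell Ago2 kd. Unlike Zfp352, it was already high in the oocytes. Tcstv3 was 18.0 and 33.9 FPKM in the oocytes, 273.2 and 306.0 FPKM in the 2-cell controls, and 134.1 FPKM, the repeated value, in both 2-cell Ago2 kd libraries. At the 4-cell stage it was 0.541 and 0.812 FPKM in the controls and 13.7 and 13.5 FPKM after Ago2 kd. Its 2-cell control mean of 289.6 ± 23.2 FPKM (SD, n = 2) ranked 98th, the highest of the members.

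**Figure D2:**
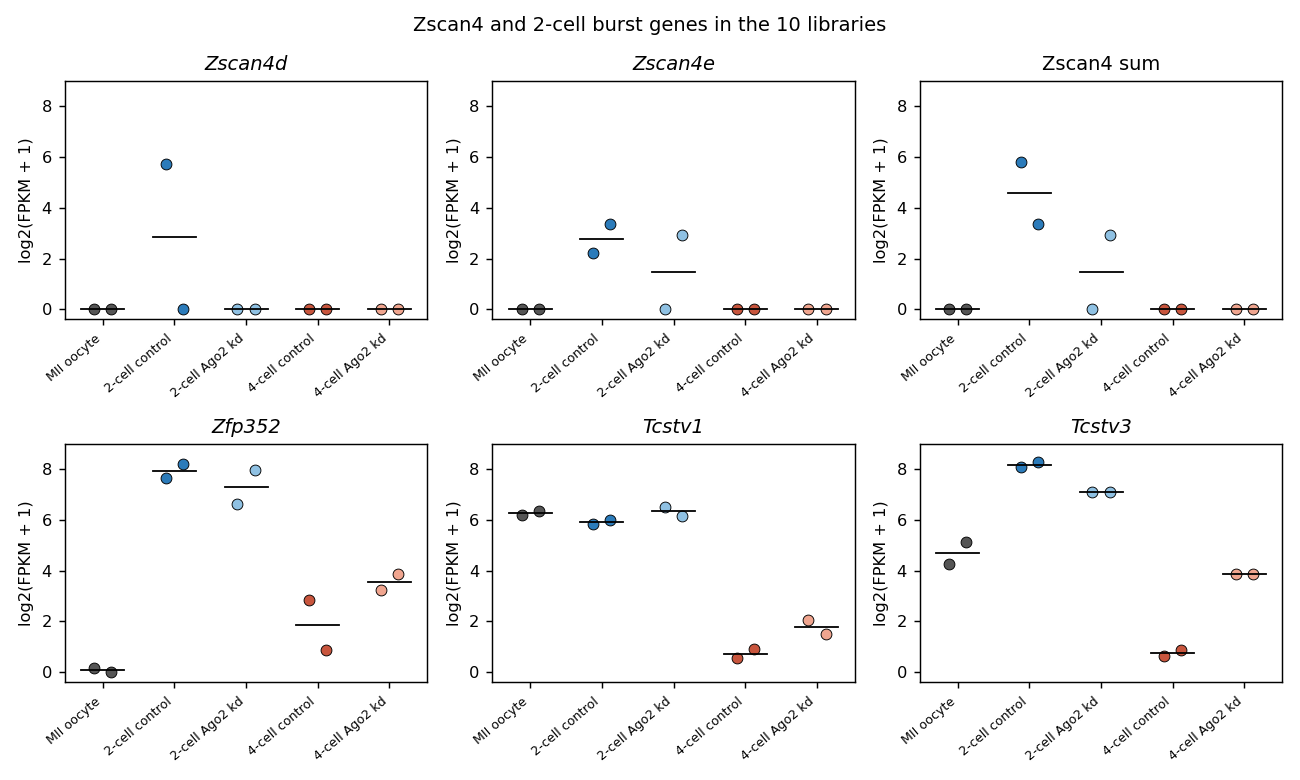
Levels of the 5 members with a row and of the sum of the Zscan4 rows, as log2(FPKM + 1) on the y axis, in the 5 groups on the x axis. Each point is 1 library and each line the mean of the 2 libraries, and all members but Tcstv1 have their highest group mean in the 2-cell controls.

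In the 2-cell controls the order of the group means on the FPKM scale, which is per length, was Tcstv3, Zfp352, Tcstv1 and Zscan4d before Zscan4e. The ranges of Tcstv3 (273.2 to 306.0 FPKM) and Zfp352 (197.2 to 290.4 FPKM) overlapped, and those of Zscan4d and Zscan4e did too, so these neighbours did not differ beyond their spread. Zfp352 and Tcstv1 did not overlap. Across the 10 libraries, Pearson's r of log2(FPKM + 1) between members lay between 0.224, for Zscan4d and Tcstv1, and 0.841, for Tcstv1 and Tcstv3. These libraries share their stages and the table's structure, and r is given as a description.

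The first question was which members rose as the embryo left the oocyte state. Between MII oocytes and 2-cell controls, Zfp352 and Tcstv3 rose, Zscan4e did not pass the test after adjustment, and Tcstv1 showed no detectable change. Of the 9 members 5 had a row and 4 were tested, since Zscan4d did not reach 1 FPKM in 2 libraries. Zscan4e passed this filter only through its 2-cell libraries, so the counts over tested members describe them and support nothing. Of the 4, 2 were called higher, where 6.35% of the 8726 tested genes were, by limma with Benjamini-Hochberg adjusted p under 0.05.

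Zfp352 was higher in 2-cell controls by 7.83 (SE 0.75) on the log2(FPKM + 1) scale, with an adjusted p of 0.000953 in limma. Tcstv3 was higher by 3.50 (SE 0.36), with an adjusted p of 0.00118 in limma, and the ratio of its group means was 11.2. This SE and p count the repeated 2-cell Ago2 kd value as 2 libraries. Zscan4e, listed at 0 in both oocyte libraries, had an unadjusted p of 0.0174 and an adjusted p of 0.0731 in limma, and over the alternatives its adjusted p ran from 0.00708 to 0.285. For Tcstv1 the log2 difference was −0.36 (95% limits −1.20 to 0.48, adjusted p = 0.575 in limma), and it turned to between 0.46 and 0.82 when the libraries were rescaled. The groups of Zscan4e, Zfp352 and Tcstv3 did not overlap, with the embryos higher, as held for 25.0% of all tested genes, and those of Tcstv1 did not overlap with the embryos lower, as held for 37.0%.

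The next question was whether the burst had ended by the early 4-cell stage. All 4 tested members were called lower in 4-cell than in 2-cell controls, where 17.1% of the tested genes were (limma, Benjamini-Hochberg adjusted p under 0.05). Zscan4e passed the filter only through its 2-cell libraries, so counts over the 4 members describe them and support nothing here either. Tcstv3 fell by 7.44 on the log2(FPKM + 1) scale (SE 0.36, adjusted p = 5.89e-05 in limma), again with the repeated 2-cell Ago2 kd value counted as 2 libraries. Zfp352 fell by 6.06 (SE 0.75, adjusted p = 0.00131) and Tcstv1 fell by 5.20 (SE 0.36, adjusted p = 0.000122), both in limma. For these 3 genes the call remained under all 19 alternatives.

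In plain FPKM, 0.234% of the 2-cell control level of Tcstv3 was left at the 4-cell stage, 1.44% of that of Zfp352 and 1.09% of that of Tcstv1. Zscan4e was listed at 0 in both 4-cell controls. Its adjusted p of 0.0472 in limma was lost without the filter on low values (0.113) and in 8 of the 10 fits that left out a library, which were all but those without 1 of the 2-cell Ago2 kd libraries. The groups of all 4 did not overlap, as held, in the downward direction, for 30.2% of the tested genes. In the last stretch of rows all 126 tested genes, Tcstv3 among them, had a negative log2 fold change here (median −1.19), against a median of 0.28 over the other rows, and the part of this in the Tcstv3 value was not tested.

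**Figure D3:**
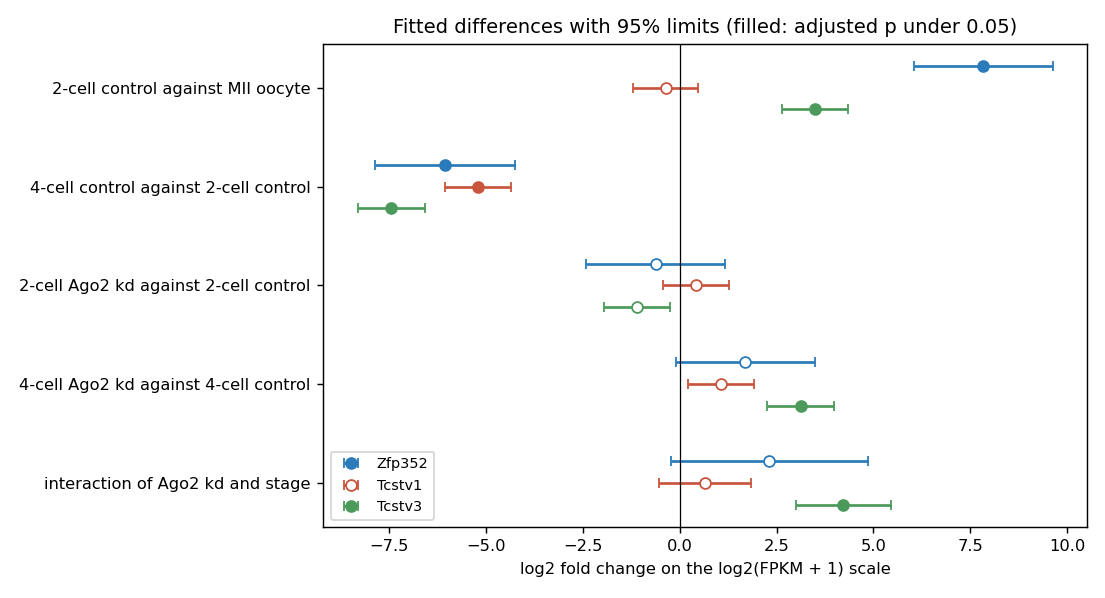
Log2 fold changes of Zfp352, Tcstv1 and Tcstv3 on the log2(FPKM + 1) scale (x axis) in the 4 comparisons and the interaction (y axis), with 95% limits. Filled points have an adjusted p under 0.05: all 3 genes in the fall to the 4-cell stage, Zfp352 and Tcstv3 in the rise to the 2-cell stage, and Tcstv3 in the 4-cell Ago2 kd comparison and the interaction.

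The knockdown comparisons ask whether the members depend on Ago2 within a stage. In 2-cell embryos no member passed the test after adjustment, where 0.344% of the tested genes did, and at an unadjusted p under 0.05 in limma 1 of the 4, Tcstv3, was lower, as 2.9% of the tested genes were. For Tcstv3 the log2 difference of 2-cell Ago2 kd against 2-cell control was −1.10 (95% limits −1.96 to −0.24, adjusted p = 0.601 in limma), with the repeated value entered as 2 libraries. When the repeated value was entered once, the adjusted p was 1. The 134.1 FPKM lay below both controls, as both knockdown libraries did for 14.7% of all tested genes.

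For Zfp352 the log2 difference after 2-cell Ago2 kd was −0.62 (95% limits −2.41 to 1.17), with overlapping groups, and it was 0.061 without 2-cell Ago2 kd replicate 1. Zscan4e gave −1.31 (95% limits −3.42 to 0.81), with overlapping groups, and 0.16 without that library. Tcstv1 gave 0.42 (95% limits −0.43 to 1.26), with both knockdown libraries above both controls, as for 14.4% of the tested genes. All 3 had an adjusted p of 1 in limma. The sum of the Zscan4 rows was lower in both knockdown libraries (0 and 6.66 FPKM) than in both controls (54.9 and 9.23 FPKM), and the log2(sum + 1) means were 1.47 ± 2.08 and 4.58 ± 1.73 (SD, n = 2). Such a separation held for 14.7% of the tested genes. It rests on Zscan4d, 51.3 FPKM in 2-cell control replicate 1, from the stretch where a 0 may stand for a gene not listed. Zscan4e alone was 3.59 and 9.23 FPKM against 0 and 6.66 FPKM, which overlap. No test was made on a sum over members, and the limits for Zfp352 hold both a fall and a rise of more than 1 log2 unit.

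In 4-cell embryos Tcstv3 was called higher after Ago2 kd and the other tested members were not. This 1 of 4 stands beside 1.07% of the tested genes called higher (limma, Benjamini-Hochberg adjusted p under 0.05). Tcstv3 rose by 3.12 (SE 0.36, 95% limits 2.26 to 3.98, adjusted p = 0.00518 in limma), from 0.677 ± 0.191 FPKM in controls to 13.6 ± 0.136 FPKM (SD, n = 2), a ratio of 20.0. The SE, limits and p count the repeated 2-cell Ago2 kd value as 2 libraries, which can make the SE, limits and p too small. Without the library that stood apart, 4-cell Ago2 kd replicate 1, the difference was 3.11 (adjusted p = 0.0219 in limma). When just these 4 libraries were fitted, the adjusted p was 0.280 and no gene of the table was called by limma, with 324 genes higher and 435 lower at an unadjusted p under 0.05.

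Tcstv3 lies in the last stretch of rows, and that stretch as a whole was higher after 4-cell Ago2 kd. Of the 135 rows of its stretch with at least 1 FPKM in a library, 87.4% had both 4-cell Ago2 kd libraries above both 4-cell controls, against 17.4% of the other rows. The median log2 fold change of the 126 tested genes of this stretch was 0.85, against 0 in the other rows, and 4 of the 126 were called. Just 2 of the 126 had a larger log2 fold change than Tcstv3, and 41 of the 8600 other genes did. The part of this shift in the Tcstv3 difference was not tested.

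**Figure D4:**
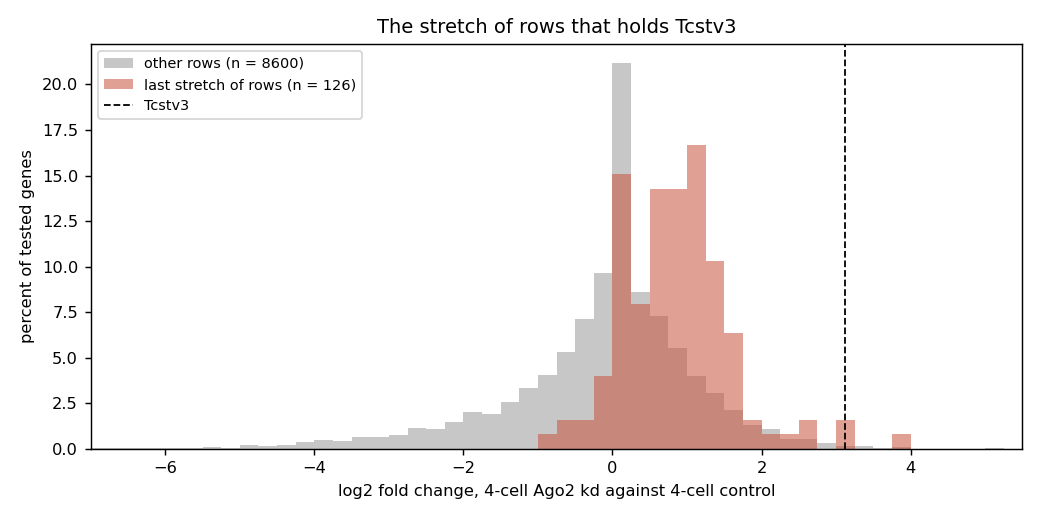
Distribution of the log2 fold change of 4-cell Ago2 kd against 4-cell control (x axis) as the percent of tested genes (y axis), for the 126 genes of the last stretch of rows and the 8600 other genes. The last stretch lies to the right of the other rows, with medians of 0.85 and 0, and Tcstv3 (dashed line) lies at 3.12, in its right tail.

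Zfp352 and Tcstv1 lie in the first stretch of rows and carry no repeated values. For Zfp352 the log2 difference after 4-cell Ago2 kd was 1.69 (95% limits −0.10 to 3.49, adjusted p = 0.363 in limma). It was 2.69 without 4-cell control replicate 1 and 0.69 without 4-cell control replicate 2. For Tcstv1 it was 1.06 (95% limits 0.22 to 1.91), with an unadjusted p of 0.0206 and an adjusted p of 0.207 in limma. At an unadjusted p under 0.05 in limma Tcstv1 and Tcstv3 were higher, as 7.09% of the tested genes were. Both knockdown libraries were above both controls for Zfp352, Tcstv1 and Tcstv3, as held for 20.1% of all tested genes. Both Zscan4 genes were listed at 0 in all 4 libraries, so no difference could be seen for them.

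The share of the 2-cell level left at the 4-cell stage was thus 6.33% for Zfp352, 3.09% for Tcstv1 and 10.1% for Tcstv3 in Ago2 kd embryos, beside 1.44%, 1.09% and 0.234% in controls. For Tcstv3 the Ago2 kd share divides by the repeated value of 134.1 FPKM. The median log2 fold change of its stretch of rows was −1.19 from 2-cell to 4-cell controls and 0.85 after 4-cell Ago2 kd. The part of these shifts in the Tcstv3 shares was not tested. For Zfp352 the control share was 0.330% without 4-cell control replicate 1 and 2.55% without replicate 2, and the Ago2 kd share was 11.4% without 2-cell Ago2 kd replicate 2. The interaction, which compares the Ago2 kd difference at the 4-cell stage with that at the 2-cell stage, was called for Tcstv3 (4.23, SE 0.51, adjusted p = 0.00980 in limma) where 0.619% of the tested genes were called in this direction. With the repeated value entered once its adjusted p was 0.0365. The interaction was 2.31 (95% limits −0.22 to 4.85) for Zfp352, and 1.31 to 3.31 when 1 library was left out, and 0.65 (95% limits −0.55 to 1.84) for Tcstv1, and neither passed the adjusted threshold in limma. The oocyte markers, whose sum also differed here, were 10.8 and 5.95 FPKM in the 4-cell controls and 41.2 and 23.9 FPKM after 4-cell Ago2 kd, and their part in these values was not tested. Of the 41.2 FPKM, in 4-cell Ago2 kd replicate 1, 23.5 FPKM was Zp3, listed at 0 in every other 4-cell library. Oosp1 and Mos were higher in both knockdown libraries than in both controls, as held for 20.1% of the tested genes. Gdf9 overlapped, and Zp1, Zp2 and Bmp15 were at or near 0.

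The other genes of the burst were followed through a list of 39, of which 34 had a row and 29 were tested. Between oocyte and 2-cell control 22 of the 29 were called higher and none lower, where 6.35% and 14.0% of all tested genes were, with a median log2 fold change of 4.46 beside −0.06 over all tested genes. Gm4340 was 0.201 and 0.346 FPKM in the oocytes and 109.1 and 320.2 FPKM in the 2-cell controls, a rise by 7.21 (SE 1.02, adjusted p = 0.00400 in limma). Gm2022, listed at 0 in both oocytes, was 75.7 and 204.6 FPKM in the 2-cell controls (adjusted p = 0.0201 in limma, past the threshold in 14 of 19 alternatives). Of the 29, 5 reached 1 FPKM in 2-cell libraries alone and 16 in 2-cell and 4-cell but in no oocyte library. They passed the filter through the stages where they were high, so the counts and medians describe the list and support nothing, and the median depends on the added 1 FPKM.

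At the 4-cell stage 16 of the 29 were called lower and 3 higher, where 17.1% and 20.5% of all tested genes were, with a median of −3.52 beside 0.24 over all tested genes. Gm4340 was 0 and 0.0833 FPKM in the 4-cell controls, and Gm2022 was 0.383 and 0 FPKM. The 3 that rose were Pramel7, Sp110 and Ubtfl1, the last named after its value was seen. Pramel7, of the PRAME-like family, was 18.6 and 7.96 FPKM in 2-cell controls and 61.6 and 752.4 FPKM in 4-cell controls (adjusted p = 0.0387 in limma). Each of these 3 calls was past the threshold in 6 or 7 of 19 alternatives.

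In the knockdown comparisons none of the 29 passed the adjusted threshold in limma. Of all tested genes 0.344% passed it in 2-cell embryos, and 1.07% were called higher and 2.53% lower in 4-cell embryos. At an unadjusted p under 0.05 in limma, 1 of the 29 was higher and 3 lower in 2-cell Ago2 kd embryos, where 2.87% and 2.9% of the tested genes were. In 4-cell Ago2 kd embryos 2 were higher and 0 lower, where 7.09% and 7.99% of the tested genes were. The median log2 fold change was −0.46 in 2-cell and 0.38 in 4-cell embryos, beside 0 over all tested genes in both. The same 2 control libraries of each stage enter every gene's value, so the genes of the list are not independent.

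**Figure D5:**
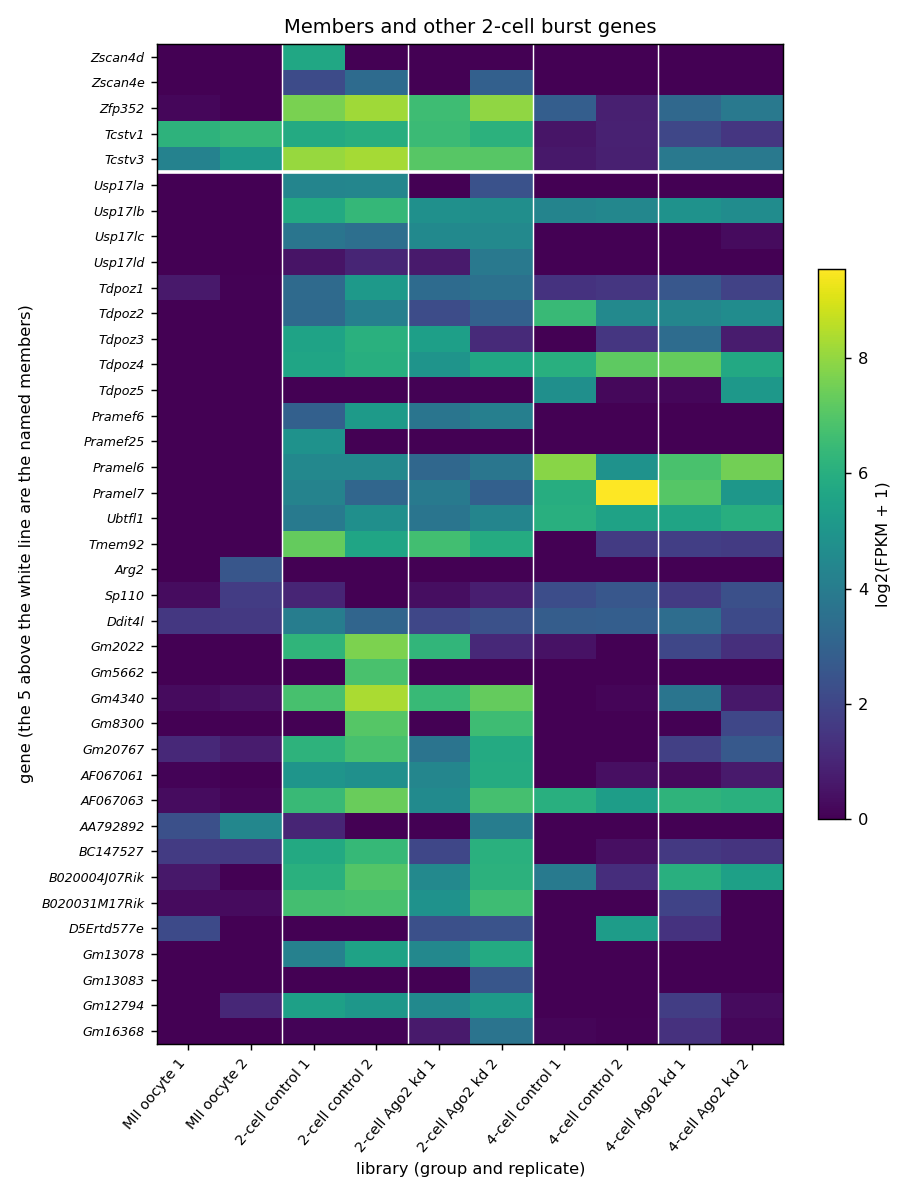
Levels as log2(FPKM + 1) (colour scale) of the 5 members with a row, above the white line, and of the 34 other 2-cell burst genes with a row, below it (y axis), in the 10 libraries (x axis). Most rows are bright in the 4 libraries of the 2-cell stage, and a few, such as Pramel7, are brightest at the 4-cell stage.

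The genes whose pattern over the 10 libraries was most like that of the Zscan4 sum were Gm43655 (Pearson's r 0.958), Usp17la (0.956), Gm6803 (0.947), Gm20765 (0.903) and Gm4302 (0.893), among 5571 genes with a maximum of at least 10 FPKM. Usp17la encodes a ubiquitin-specific protease. It was 19.1 and 20.2 FPKM in the 2-cell controls, 0 and 4.27 FPKM after 2-cell Ago2 kd and listed at 0 in the other 6 libraries. The knockdown libraries were among those used to choose it, so its likeness there follows from the choice.

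The genes most like Zfp352 were Ube2a (0.988), RP23-32A8.12 (0.980), Gm14107 (0.975), Gm5576 (0.971) and Gm2035 (0.967). Ube2a, a ubiquitin-conjugating enzyme, was 9.81 and 10.3 FPKM in the oocytes, 120.8 and 139.7 FPKM in the 2-cell controls, and 106.2 and 143.1 FPKM after 2-cell Ago2 kd. In 4-cell embryos it was 32.9 and 22.2 FPKM in controls and 32.5 and 37.7 FPKM after Ago2 kd. It followed the order of the Zfp352 groups from a higher floor. These r values over 10 libraries of 5 groups are a description.

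Of 6 names listed as activators of the programme 5 had a row and 3 were tested. The list holds both Dux and Duxf3, and the name without a row was Dux. Duxf3, a double homeobox gene of the Dux family, measured 0.123 and 0.0906 FPKM in oocytes. It reached 6.20 and 4.94 FPKM in 2-cell controls and was back at 0.134 and 0 FPKM in 4-cell controls. It rose by 2.56 (adjusted p = 0.0337 in limma) and then fell by 2.62 (adjusted p = 0.0192 in limma), and 9 and 15 of 19 alternatives were past the threshold. It reached 1 FPKM in 2-cell libraries alone, so it passed the filter through the stage where it was high. In 2-cell Ago2 kd libraries it was 13.2 and 2.20 FPKM, on either side of the controls. Nelfa, a subunit of the NELF complex that pauses RNA polymerase II, fell by 1.55 from the oocyte to the 2-cell control (adjusted p = 0.0119 in limma). Its values went from 149.7 and 149.4 FPKM to 46.1 and 55.1 FPKM. This call was past the threshold in 13 of 19 alternatives, and its adjusted p in limma reached 0.589. The FPKM sums were 450124 and 458874 in the oocytes and 196312 and 203645 in the 2-cell controls. The part of this difference in the Nelfa fall was not tested. None of the 3 was called in a knockdown comparison in limma, and at an unadjusted p under 0.05 none was either.

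Of 14 repressors 13 had a row and 11 were tested. Between 2-cell and 4-cell controls 4 were called higher and 1 lower, where 20.5% and 17.1% of all tested genes were. Of these, Chaf1b reached 1 FPKM in the 4-cell controls alone, so it passed the filter only through the group where it was high. Its call, and the count with it, describe these genes and support nothing. Chaf1b, the middle subunit of the chaperone CAF-1, was 0.290 and 0.0890 FPKM in 2-cell controls and 31.0 and 31.9 FPKM in 4-cell controls, a rise by 4.77 (SE 0.30, adjusted p = 8.91e-05 in limma). Trim28, a corepressor recruited by zinc finger proteins, was 0.698 and 1.64 FPKM and then 35.8 and 63.6 FPKM, a rise by 4.53 (SE 0.60, adjusted p = 0.00167 in limma). Rif1 and Pcgf6, named after their values were seen, were the other two called higher, past the threshold in 15 and 11 of 19 alternatives. Max, a partner of MGA in a Polycomb complex, fell by 3.09 (adjusted p = 0.00102 in limma). Between the oocyte and the 2-cell control, Trim28 fell by 3.83 and Pcgf6, a subunit of that complex, fell by 2.45 (adjusted p = 0.00591 and 0.00142 in limma).

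Those same 2 repressors, Chaf1b and Trim28, were the ones called in the 4-cell knockdown comparison, both lower, where 2.53% of the tested genes were called lower. Chaf1b reached 1 FPKM in the 4-cell controls alone, so it passed the filter only through the group where it was high. Its values and tests describe it and support nothing. Chaf1b was 0.830 and 0.622 FPKM after 4-cell Ago2 kd against 31.0 and 31.9 FPKM in the controls, and fell by 4.23 (SE 0.30, adjusted p = 0.000586 in limma). Trim28 was 7.22 and 2.04 FPKM against 35.8 and 63.6 FPKM, and fell by 3.29 (SE 0.60, adjusted p = 0.0356 in limma). In both genes the groups did not overlap, as held, in the downward direction, for 16.9% of the tested genes. Without 4-cell Ago2 kd replicate 1 the adjusted p was 0.00326 for Chaf1b and 0.0236 for Trim28.

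The Chaf1b call was past the threshold in 18 of 19 alternatives and the Trim28 call in 3 of 19, and with just the 4 libraries compared the adjusted p in limma was 0.239 and 0.389. The interaction was −4.28 for Chaf1b (adjusted p = 0.00457 in limma) and −5.54 for Trim28 (adjusted p = 0.0263 in limma), where 1.5% of the tested genes were called in this direction. The Trim28 interaction was past the threshold in 7 of 19 alternatives, and its adjusted p in limma reached 0.0850. In 2-cell embryos Trim28 was 6.82 and 12 FPKM after Ago2 kd and 0.698 and 1.64 FPKM in controls, which did not pass the adjusted threshold. These groups did not overlap, as held in the upward direction for 14.4% of the tested genes. At an unadjusted p under 0.05 in limma, 1 of the 11 repressors was higher and 0 lower in 2-cell embryos, beside 2.87% and 2.9% of the tested genes. In 4-cell embryos 0 were higher and 2 lower, beside 7.09% and 7.99%. For Chaf1b the alternatives and the interaction reuse the control values through which it passed the filter, so they describe it and support nothing. No relation between Chaf1b or Trim28 and the levels of the members was tested.

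Of 10 telomere factors 8 had a row and 7 were tested, and none was called in a knockdown comparison in limma. Of all tested genes 0.344% were called in 2-cell embryos, and 1.07% were called higher and 2.53% lower in 4-cell embryos. At an unadjusted p under 0.05 in limma 0 of the 7 passed in 2-cell embryos, where 2.87% of the tested genes were higher and 2.9% lower. In 4-cell embryos 1 was lower, as 7.99% of the tested genes were. Dkc1, which encodes the telomerase component dyskerin, fell by 2.64 between oocyte and 2-cell control (adjusted p = 0.0356 in limma), from 89.2 and 80.3 FPKM to 8.04 and 20.0 FPKM, and this call was past the threshold in 8 of 19 alternatives. Acd, the shelterin subunit TPP1, was 51.4 and 158.3 FPKM in 2-cell controls and 9.11 and 0 FPKM in 4-cell controls, and fell by 4.84 (adjusted p = 0.0224 in limma), a call past the threshold in 15 of 19 alternatives. The Acd value at 0 was in 4-cell control replicate 2. Dkc1 and Acd were each the only factor called in their comparison, where 14.0% and 17.1% of the tested genes were called lower.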

How the data were processed

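The 5 groups of 2 libraries were set by the labels. Per the paper's methods and the submitters' notes, the authors trimmed reads with Trim Galore, aligned them to GRCm38.p6 (mm10) with HISAT2 2.1.0, counted with HTSeq-count in union mode and deposited FPKM values made with StringTie (CASAVA 1.4 is also listed); DESeq2, which they used on counts, was not repeated. Nothing says whether libraries came from separate collections, so p-values measure the spread between these libraries, which may be technical. With 2 against 2 libraries an exact permutation test cannot go below 0.333.

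From the FPKM table, genes with at least 1 FPKM in 2 libraries (8726) were fitted as log2(FPKM + 1) with limma 3.58.1 in R 4.3.3, with 1 mean per group over all 10 libraries (5 residual degrees of freedom), a variance trend and robust moderation, and two-sided p-values were adjusted by Benjamini-Hochberg over all genes tested. A call is an adjusted p under 0.05, and the unadjusted threshold, which the study used, is given beside it. Fold changes are on the log2(FPKM + 1) scale and understate changes of low genes. Gene positions are from GENCODE M21 and upstream sequences from RefSeq, and identities are from global alignments.

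The members and all gene lists were chosen with earlier results of these data known. Named genes are the members with a row, the 2 largest called rises and falls per list and comparison, and the 5 genes most alike by Pearson's r. The replicate numbers showed no pairing of libraries (r of deviations −0.093 to 0.092), which cannot settle whether collections were shared. Alternatives changed the pseudocount, filter, scaling, moderation, replicate block and libraries, and, chosen after seeing the data, entered the repeated 2-cell Ago2 kd values once.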

Additional observations from a re-analysis of the deposited data

Results flagged for a closer look

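For Tcstv3 the Ago2 kd difference at the 4-cell stage exceeded that at the 2-cell stage by 4.23 on the log2(FPKM + 1) scale (SE 0.51, adjusted p = 0.00980 in limma, interaction term), with both 4-cell knockdown libraries above and the 2-cell knockdown value below the controls of its stage. The 2-cell knockdown value is 1 value entered in both libraries. In the stretch of rows that holds Tcstv3, 81.0% of 126 genes had an interaction above 0, against 49.4% of the other genes, and 2 of the 126 lay above Tcstv3.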

How the results depend on the processing

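The number of members called was 2 for oocyte to 2-cell control, 4 for 2-cell to 4-cell control, 0 and 1 for the 2-cell and 4-cell knockdown and 1 for the interaction, and it moved by over 1.5 times in 1 of 45 alternatives that kept all libraries: 0 for the 4-cell knockdown with only the groups compared, which leaves 4 libraries in the fit. With each library scaled to a sum of 1000000, the mean of the Zscan4 sum moved from 32.1 to 162.6 in 2-cell controls and from 3.33 to 16.2 in 2-cell Ago2 kd. Leaving out 1 library gave 9.23 to 54.9 FPKM in 2-cell controls, 0 to 6.66 FPKM in 2-cell Ago2 kd, and a log2 difference of −4.58 to −1.64.

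Reversed directions were those of Tcstv1 from oocyte to 2-cell control (0.82 with a sum of 1000000, 0.46 with equal medians, 0.68 with quantile normalization) and, without 2-cell Ago2 kd replicate 1, of Zscan4e and Zfp352 in the 2-cell knockdown and of the Zscan4e interaction. Leaving out 1 library gave −2.78 to 0.16 for Zscan4e and −1.30 to 0.061 for Zfp352 in that comparison, and −0.16 to 2.78 for the Zscan4e interaction. Scaling to a sum of 1000000 moved the median of all genes from −0.06 to 0.38 for oocyte to 2-cell control and the called split from 554 higher and 1224 lower to 1036 and 571; equal medians gave 785 and 771, and quantile normalization 683 and 758.

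With the replicate block no member call changed, while the genes called in all were 17 and not 30 in the 2-cell knockdown and 114 and not 185 in the interaction. The 30 became 55 with a pseudocount of 0.1, 78 without the filter, 63, 60 and 49 under the 3 scalings, 48 without the robust option, 0 with only the groups compared (204 higher and 201 lower at an unadjusted p under 0.05 in limma) and 50 to 89 without a library of these groups. For the 4-cell knockdown the 314 became 0 with only the groups compared and 614 without 4-cell Ago2 kd replicate 2, which also took the interaction to 439. For oocyte to 2-cell control the 1778 became 948 to 1088 without 1 oocyte library or 2-cell control replicate 2. The causes were not tested.

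Without counts, the limits of depth are unknown, and a listed 0 gives no upper limit.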
